A study of Mus musculus with 9 samples.

Results

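Cultured lung endothelial cells from mice with and without Cdh5-Cre, both carrying the same floxed Mapk8 and Mapk9 alleles, were compared by RNA-seq. Mapk8 and Mapk9 encode JNK1 and JNK2. The comparison holds 6 of the 9 libraries of the series, 3 labelled as knockout (E3KO) and 3 as floxed control (EfCtrl), and covers 10450 of 33353 genes whose symbol was used for 1 locus alone. A gene entered if its mean was 2 FPKM (fragments per kilobase of transcript, scaled to library size) or more in either group. The question for this pair is which genes change when the floxed alleles are recombined in endothelium, with the alleles themselves held equal.

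The E3KO mice were Cdh5-Cre+ with LoxP/LoxP alleles of Jnk1 and Jnk2 and were Jnk3-/-. The EfCtrl mice were Cdh5-Cre-negative and otherwise had those alleles, Jnk3-/- included, so that neither group has intact Jnk3 (Mapk10). The 3 libraries of the other control group (ECtrl, Cdh5-Cre+ with wild-type Jnk1 and Jnk2, also Jnk3-/-) entered the fit to estimate the spread and are not described further. All mice were C57BL/6J and 10 to 12 weeks old. The Cdh5 (VE-cadherin) promoter drives Cre in endothelium, so E3KO differs from EfCtrl in both the presence of Cre and the recombined alleles, and these cannot be told apart in this pair. Each library came from a separate isolation of cells from the pooled lungs of several mice, selected on the surface protein ICAM2 with magnetic beads and grown in culture.

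JNK is a stress-activated kinase at the end of a cascade in which MAP kinase kinase kinases, among them the mixed-lineage kinases, activate MKK4 and MKK7, and these phosphorylate JNK. Its best known substrate is the transcription factor c-Jun, a subunit of AP-1. In endothelium the cascade answers cytokines and growth factors and takes part in vessel growth. Cultured endothelial cells also divide, and the transcripts for mitosis rise and fall together with the fraction of cells in the cell cycle.

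The libraries held endothelial RNA. The 19 pan-endothelial markers summed to between 4525 and 4791 FPKM in the EfCtrl libraries and to between 4760 and 5312 FPKM in the E3KO libraries. Of these markers, Vwf was under the FPKM minimum. E3KO replicate 1 stood apart from the other libraries. Its FPKM summed to 9841812, against 656089 to 908401 in the other 8 libraries, with 50.15% of the sum in the locus Gm12563 and 41.63% in Mir5105. Its genes differed from the mean of the other E3KO libraries by a median of 0.349 on the log2 scale, against 0.112 to 0.200 for the other 5 E3KO and EfCtrl libraries. Results are therefore given with this library and, where they rest on it, without it. Read depth was not part of the values, so no counting interval can be given.

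Mapk8 did not separate the groups. Mapk8 (mm10 coordinates here and below, chromosome 14, 33377898 to 33447158) was at 16.7, 14.1 and 15.1 FPKM in EfCtrl replicates 1 to 3 and at 20.8, 8.77 and 4.65 FPKM in E3KO replicates 1 to 3. The library labelled E3KO replicate 1 had the highest Mapk8 level of the 6, and the other E3KO libraries were both below every EfCtrl library. This level goes against the label of that library, and whether its cells were knockout was not tested, so that each direction given below holds for the libraries as labelled. The mean difference on the log2(FPKM + 1) scale was -0.61 (SE 0.404, limma adjusted p = 0.450, exact two-sided permutation p = 0.4, where 3 against 3 libraries allow no p below 0.1). Without that library the difference was -1.13 (limma adjusted p = 0.0664). With limma's library weights, in which E3KO replicate 1 had a weight of 0.132 and the other libraries 0.587 to 2.31, it was -1.12 (adjusted p = 0.0193).

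Mapk9 was lower in all 3 E3KO libraries. Mapk9 (chromosome 11, 49846751 to 49886421) was at 45.5, 42.7 and 47.9 FPKM in EfCtrl and at 27.6, 35.1 and 20.7 FPKM in E3KO, and the groups did not overlap (log2 fold change -0.72, SE 0.178, limma adjusted p = 0.0963, exact permutation p = 0.1, the smallest possible). Its adjusted p was 0.122 without E3KO replicate 1 and 0.0262 with library weights. Mapk10, which encodes JNK3, was at 0.270 FPKM or less in every library. A transcript with a deleted exon can still be counted in FPKM over the whole gene, so these levels do not measure the loss of protein.

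**Figure D1:**
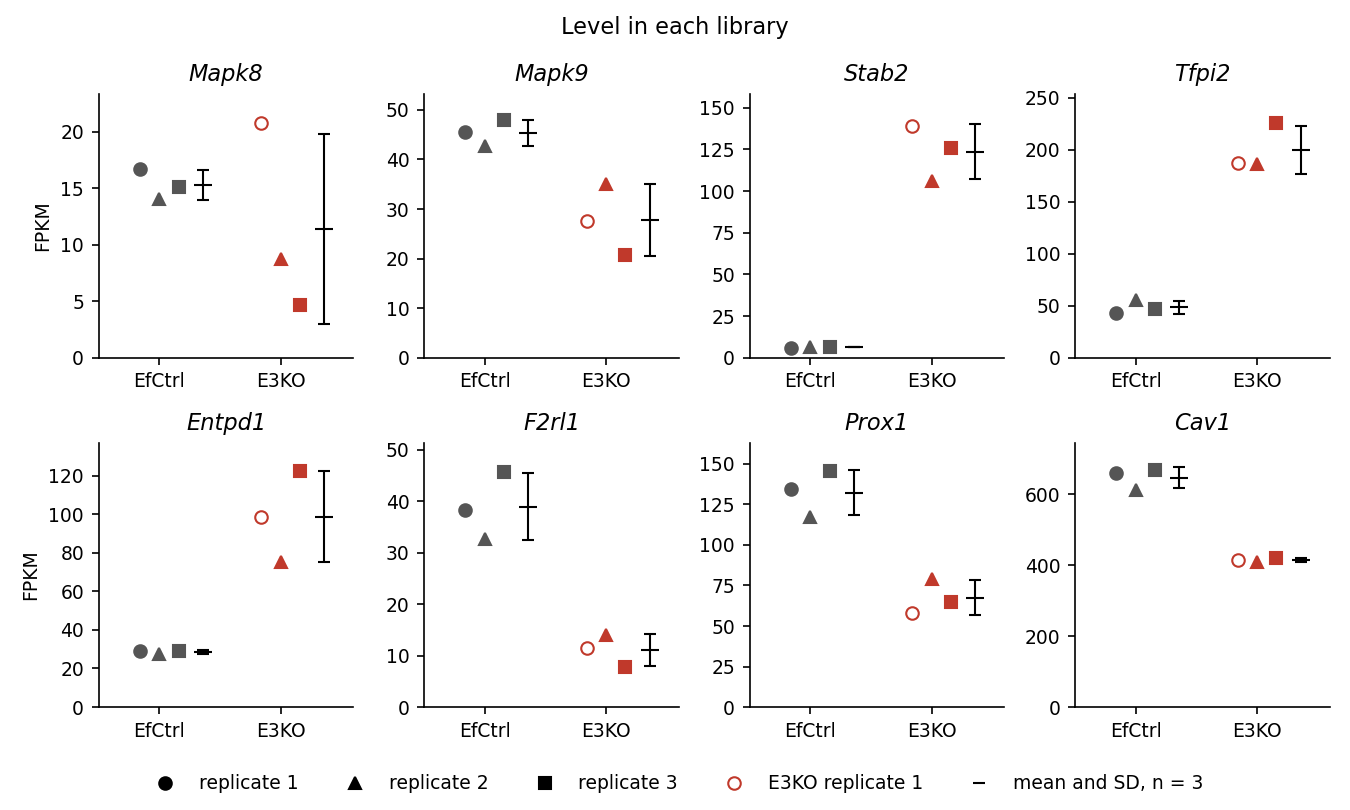
FPKM of 8 genes in each EfCtrl and E3KO library, with the mean and SD of the 3 libraries of each group. Mapk8 overlaps between the groups through E3KO replicate 1 (20.8 FPKM, open circle), while for Mapk9, Stab2, Tfpi2, Entpd1, F2rl1, Prox1 and Cav1 the groups do not overlap.

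Of the 10450 genes, 126 passed an adjusted p of 0.05 and an absolute log2 fold change of 0.5 in limma. There were 47 called higher in E3KO (0.450% of the genes tested) and 79 called lower (0.756%), the shares against which the calls in the lists below can be read. A change of 1 or more on the log2 scale was found for 27 of the genes called higher, and one of -1 or less for 38 of those called lower. The E3KO and EfCtrl libraries did not overlap for any of the 126 genes. Over all genes tested, the groups were separated in this way with E3KO higher for 993 genes (9.50%) and with E3KO lower for 2072 genes (19.8%). The unadjusted limma p was under 0.05 with E3KO higher for 535 genes (5.12%) and with E3KO lower for 1337 (12.8%), the shares against which the counts at this p in the lists below can be read. The median log2 fold change over all genes was -0.08.

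Of the calls, 37.3% were higher. That share was 47.2% with library medians set equal and 55.4% with quantile normalization, so the balance between directions depends on the scaling, while all 126 genes had the same sign under both. In bulk RNA, fewer cells of a type and less RNA per cell cannot be told apart, and this holds for every gene named here.

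The calls sat close to the threshold, and their number depended on single libraries. The adjusted p was 0.04 or more for 53 of the 126 genes. Without E3KO replicate 1, 60 of the 126 genes were still called, all 126 had the same sign, and the highest adjusted p among them was 0.0763. Down-weighting that library gave 293 genes called higher (2.80%) and 523 called lower (5.0%), and all 126 genes were among them. The counts with library weights in the lists below can be read against these shares. Leaving out 1 EfCtrl library left between 3 and 5 genes called, leaving out E3KO replicate 3 left 1 and leaving out E3KO replicate 2 left 41. Without ECtrl replicate 1 there were 220 calls, without ECtrl replicate 2 there were 87 and without ECtrl replicate 3 there were 78. Stab2 was called in each of these 9 fits. The sign was kept in all 9 for 124 of the 126 genes, and the other 2, Pde1a and Plcd3, had the same sign in the 8 fits that tested them and were under the FPKM minimum in 1. No sign could change in these fits, since the E3KO and EfCtrl libraries did not overlap for any of the 126 genes.

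**Figure D2:**
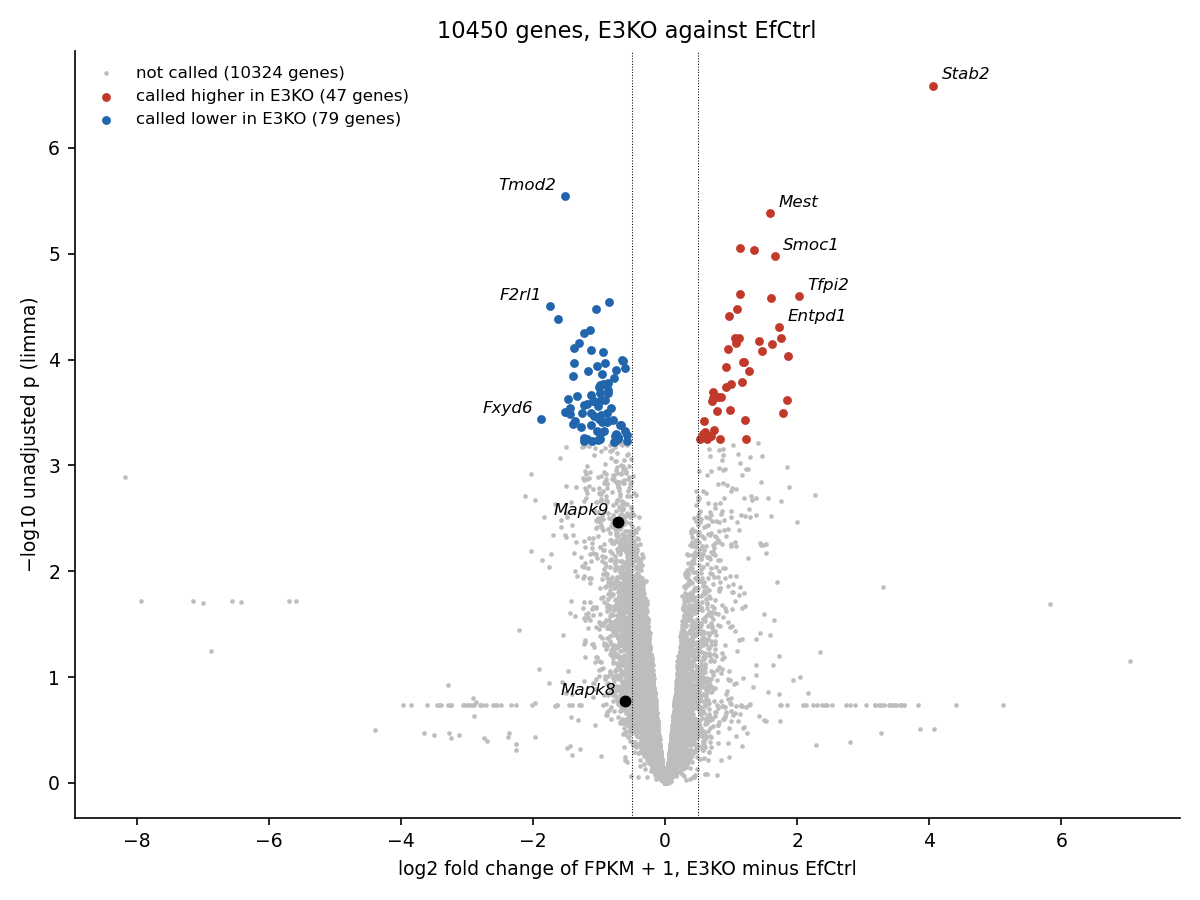
Log2 fold change of FPKM + 1 against −log10 of the unadjusted limma p for 10450 genes, with the 47 genes called higher in red and the 79 called lower in blue. Stab2 stands apart at the upper right (4.06), and Mapk8 and Mapk9 (black) lie among the genes not called.

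The largest rise was that of Stab2. Stab2 (chromosome 10, 86839094 to 87028015) encodes stabilin-2, the scavenger receptor by which sinusoidal endothelium takes up hyaluronan. It was at 6.19, 6.54 and 6.52 FPKM in EfCtrl and at 139, 106 and 126 FPKM in E3KO (log2 fold change 4.06, SE 0.274, limma adjusted p = 0.00269), which is 19.3-fold between the means. The exons of Stab2 overlap those of Gm16268. All E3KO libraries lay far above all EfCtrl libraries, and the adjusted p ranged from 6.26e-05 to 0.0287 when any 1 of the 9 libraries was left out. Stab1, the related receptor stabilin-1, chosen after its values were seen, was at 632, 476 and 604 FPKM in EfCtrl and at 337, 457 and 522 FPKM in E3KO, and these ranges overlapped (log2 fold change -0.39, limma adjusted p = 0.431). Of the 10 scavenger receptors tested, Stab2 was called higher and none lower, with a list median of 0.10.

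Regulators of clotting gave 3 genes called higher of 13 tested (23.1%, against 0.450% of all genes), the most of any list in that direction. Tfpi2, a serine protease inhibitor deposited in the matrix, was at 43.4, 55.3 and 46.5 FPKM in EfCtrl and at 187, 186 and 226 FPKM in E3KO (log2 fold change 2.02, SE 0.244, limma adjusted p = 0.0266). Entpd1, the ectonucleotidase CD39 that degrades extracellular ATP and ADP, was at 29.3, 27.5 and 29.1 FPKM and 98.6, 75.2 and 122 FPKM (log2 fold change 1.72, SE 0.228, limma adjusted p = 0.0295). Tfpi, the inhibitor of the tissue factor pathway, was at 58, 69.3 and 63.1 FPKM and 102, 94.3 and 94.1 FPKM (log2 fold change 0.60, SE 0.1098, limma adjusted p = 0.0488), a smaller change between groups that did not overlap. The list had 13 members tested and a median of -0.02, so the other members lay on both sides of 0. The groups were separated with E3KO higher for 5 (38.5%, against 9.50% of all genes) and with E3KO lower for 4 (30.8%, against 19.8%). The tissue plasminogen activator Plat, chosen after its values were seen, was at 54.6, 52.6 and 52.8 FPKM and 32.5, 40.9 and 25.8 FPKM (log2 fold change -0.70, limma adjusted p = 0.172). Without E3KO replicate 1, 2 of the coagulation genes were called.

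Slco2a1, the prostaglandin transporter, was at 0.539, 1.27 and 0.9703 FPKM in EfCtrl and at 4.89, 4.89 and 8.38 FPKM in E3KO (log2 fold change 1.85, SE 0.266, limma adjusted p = 0.0307). Perp, a p53 target found in desmosomes, was at 4.38, 6.54 and 4.53 FPKM and 19.1, 17.6 and 27.1 FPKM (log2 fold change 1.85, SE 0.303, limma adjusted p = 0.0369). Aim2, the cytosolic DNA sensor of an inflammasome, was at 2.79, 4.79 and 2.31 FPKM and 10.8, 12.6 and 17.8 FPKM (log2 fold change 1.79, SE 0.307, limma adjusted p = 0.0408). In each of the 3 genes the lowest E3KO library exceeded the highest EfCtrl library by more than 2-fold.

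Smoc1, a secreted matricellular protein, was at 0.739, 1.4 and 0.859 FPKM in EfCtrl and 5.505, 4.8 and 5.54 FPKM in E3KO (log2 fold change 1.66, SE 0.179, limma adjusted p = 0.0183). The carboxylesterase Ces2e was at 4.32, 5.01 and 4.21 FPKM and 14.6, 15.3 and 18.02 FPKM (log2 fold change 1.62, limma adjusted p = 0.0295). Tfec, a transcription factor of the MITF family, was at 0.849, 0.958 and 0.9404 FPKM and 4.29, 4.17 and 6.31 FPKM (log2 fold change 1.61, limma adjusted p = 0.0266). Tll1, a tolloid-like metalloproteinase, was at 2.95, 3.27 and 2.72 FPKM and 10.3, 8.73 and 11.04 FPKM (log2 fold change 1.47, limma adjusted p = 0.0295). For these genes every E3KO library was above every EfCtrl library.

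Mest, an imprinted gene expressed from the paternal allele, was the most abundant of the 12 largest called rises. Mest (chromosome 6, 30723547 to 30896794) was at 220.0, 232 and 195 FPKM in EfCtrl and at 696, 564 and 694 FPKM in E3KO (log2 fold change 1.59, SE 0.151, limma adjusted p = 0.0144). Its neighbour Copg2, a subunit of the coatomer of Golgi vesicles, was also called higher, at 68.8, 78.5 and 76.2 FPKM and 167, 146 and 182 FPKM (log2 fold change 1.13, limma adjusted p = 0.0266). The exons of the genes overlap in the annotation, and strand in the counting is not given in the sources used here, so part of the FPKM of Copg2 may come from Mest reads.

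The largest fall among the called genes was that of Fxyd6, a regulator of the sodium pump. Fxyd6 (chromosome 9, 45370185 to 45396158) was at 119, 67.1 and 95.2 FPKM in EfCtrl and at 23.1, 30.3 and 20.1 FPKM in E3KO (log2 fold change -1.88, SE 0.327, limma adjusted p = 0.0431). F2rl1, the protease-activated receptor PAR2, was at 38.3, 32.7 and 45.6 FPKM and 11.5, 13.98 and 7.75 FPKM (log2 fold change -1.75, SE 0.217, limma adjusted p = 0.0266). The LIM domain gene Fhl1 was at 106, 98.6 and 117 FPKM and 30.4, 45.4 and 28.2 FPKM (log2 fold change -1.62, SE 0.209, limma adjusted p = 0.0287). In all 3 genes the highest E3KO library was well under the lowest EfCtrl library.

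Tmod2, a tropomodulin that caps the pointed ends of actin filaments, had the smallest adjusted p among the falls, at 26.1, 23.9 and 27.6 FPKM in EfCtrl and 7.58, 10.2 and 7.57 FPKM in E3KO (log2 fold change -1.52, SE 0.138, limma adjusted p = 0.0144). Khdrbs2, an RNA-binding protein, was at 4.75, 7.33 and 7.53 FPKM and 0.917, 2.399 and 1.98 FPKM (log2 fold change -1.47, limma adjusted p = 0.0369). The polycystin channel gene Pkd2l1 was at 4.93, 4.59 and 5.06 FPKM and 0.556, 2.01 and 1.12 FPKM (log2 fold change -1.45, limma adjusted p = 0.0408). Phospholipase C epsilon, Plce1, was at 8.23, 4.96 and 7.802 FPKM and 2.48, 2.505 and 1.16 FPKM (log2 fold change -1.40, limma adjusted p = 0.0445). All 3 genes were low in E3KO, where the added pseudocount of 1 shrinks the fold. Adamts15, a matrix metalloproteinase, was at 3.003, 3.38 and 4.84 FPKM and 0.497, 1.03 and 0.9203 FPKM (log2 fold change -1.38, limma adjusted p = 0.0307), and Dkk2, a secreted modulator of Wnt signaling, at 11.7, 9.05 and 11.4 FPKM and 3.14, 4.45 and 2.88 FPKM (log2 fold change -1.40, limma adjusted p = 0.0332). The other 3 of the 12 largest called falls were the mitotic genes Cenpf, Plk1 and Kif2c.

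Genes of mitosis were lower in E3KO. All 29 members of the mitosis list were tested, and 12 were called lower (41.4%, against 0.756% of all genes) and none higher. All 29 had a log2 fold change below 0, with a median of -0.89 against -0.08 over all genes tested. The groups did not overlap for 27 of the 29 (93.1%, against 19.8% of all genes), the exceptions being Cdc20 and Bub1b. With library weights 28 were called lower. Without E3KO replicate 1, 7 were called (Mki67, Cenpe, Tpx2, Prc1, Anln and Aspm of the 12, and Cdc20) and the median was -0.96, and with that library in place but E3KO replicate 2, E3KO replicate 3 or any EfCtrl library left out, none was called. Without ECtrl replicate 2, 4 were called. The summed FPKM of the 29 genes was 521, 406 and 459 in EfCtrl and 243, 204 and 223 in E3KO, and E3KO replicate 1 did not stand apart here. Fibroblast and mural markers, summing to 28.3, 69.4 and 83.8 FPKM in EfCtrl and to 12.5, 20.5 and 27.0 FPKM in E3KO, were lower in the same libraries, and their part in this result was not tested.

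The mitotic genes called lower ranged from kinases to spindle and division proteins. Plk1, the polo-like kinase that drives mitotic entry and spindle assembly, was at 8.35, 6.24 and 8.54 FPKM in EfCtrl and at 1.396, 2.68 and 2.72 FPKM in E3KO (log2 fold change -1.43, SE 0.241, limma adjusted p = 0.04002). Prc1, which bundles microtubules of the central spindle, was at 27.5, 21.6 and 24.2 FPKM and 8.75, 9.17 and 9.91 FPKM (log2 fold change -1.30, SE 0.1801, limma adjusted p = 0.0295). Cenpf, a kinetochore protein, was at 7.39, 6.38 and 6.34 FPKM and 1.15, 2.12 and 1.93 FPKM (log2 fold change -1.51, SE 0.258, limma adjusted p = 0.0408). In each of these 3 genes the highest E3KO library was well under the lowest EfCtrl library. The annotation places other exons over those of Plk1 (Gm44985) and Prc1 (Rccd1), whose reads cannot be told apart without strand.

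Cenpe, a kinetochore motor, had the smallest adjusted p of the list, with 7.26, 6.39 and 6.79 FPKM in EfCtrl and 3.14, 3.29 and 3.59 FPKM in E3KO (log2 fold change -0.85, SE 0.104, limma adjusted p = 0.0266). Mki67, the proliferation marker Ki-67, was at 9.097, 7.22 and 8.96 FPKM and 2.92, 3.69 and 4.29 FPKM (log2 fold change -1.03, limma adjusted p = 0.0312). The study counted cells stained for EdU or Ki-67 in such cultures and reported no difference in proliferation between control and E3KO cells. A share of stained cells and an RNA level are different measures. Aspm, a spindle pole protein, was at 4.24, 3.38 and 4.03 FPKM and 1.23, 1.69 and 1.69 FPKM (log2 fold change -0.95, limma adjusted p = 0.0295). The E3KO libraries of these genes lay close together. Anln, the actin-binding protein anillin of the cleavage furrow, was at 13.6, 10.7 and 13.1 FPKM and 6.67, 5.95 and 6.49 FPKM (log2 fold change -0.86, limma adjusted p = 0.0348), and the spindle assembly factor Tpx2 at 19.6, 16.4 and 19.2 FPKM and 10.96, 8.82 and 9.28 FPKM (log2 fold change -0.86, limma adjusted p = 0.0369). The other members called lower were Ccnb2, Ube2c, Ttk and Kif20b, with log2 fold changes of -1.26, -1.22, -1.36 and -0.71, and the exons of Ube2c overlap those of Tnnc2. Kif2c, a kinesin that depolymerizes microtubules at centromeres and is no member of the list, was at 10.4, 7.18 and 8.68 FPKM and 2.27, 3.46 and 2.52 FPKM (log2 fold change -1.38, limma adjusted p = 0.0295).

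**Figure D3:**
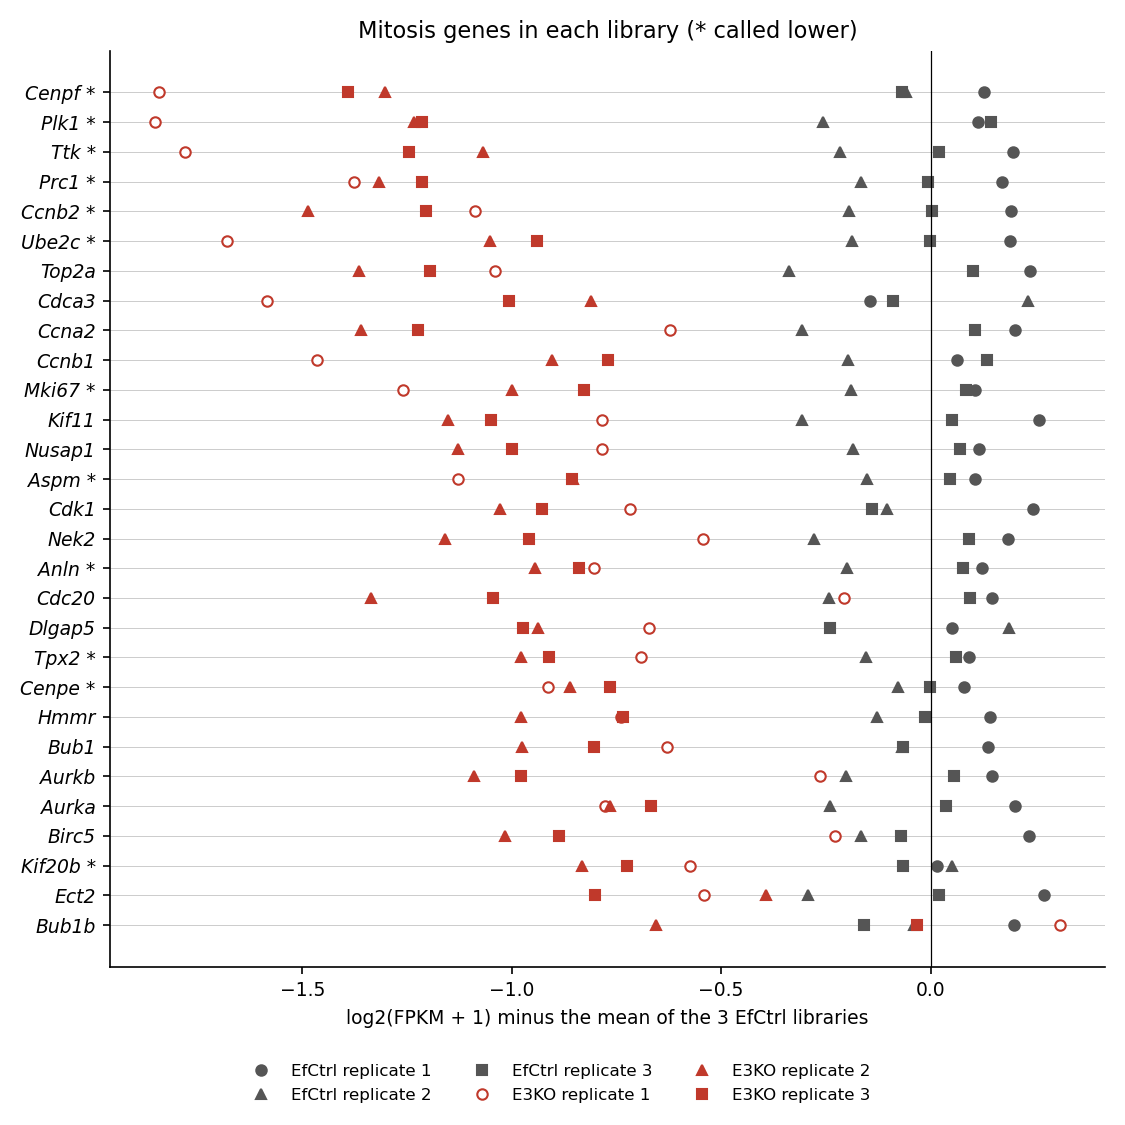
Log2(FPKM + 1) of the 29 mitosis genes in each library, set against the mean of the 3 EfCtrl libraries and ordered by log2 fold change. Every E3KO library lies to the left of every EfCtrl library for 27 genes, and the asterisks mark the 12 called lower.

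The listed genes of DNA replication had a median below that of all genes, and none of them passed the test. Of 18 tested, limma called none, 7 had an unadjusted p under 0.05, all of them lower, and 5 were called lower with library weights. The groups were separated with E3KO lower for 9 of 18 (50%, against 19.8% of all genes), and the list median was -0.41. Mcm5, a subunit of the replicative helicase, was at 6.58, 4.56 and 4.66 FPKM in EfCtrl and 1.602, 2.798 and 2.75 FPKM in E3KO (log2 fold change -0.90, limma adjusted p = 0.0683). Pcna, the sliding clamp, was at 13.4, 12.4 and 13.8 FPKM and 6.81, 9.69 and 6.83 FPKM (log2 fold change -0.71, limma adjusted p = 0.0689). Outside the list and chosen after its values were seen, the DNA polymerase gene Pole was called higher. It was at 21.99, 22.4 and 20.2 FPKM and 38.6, 34.6 and 35.4 FPKM (log2 fold change 0.72, limma adjusted p = 0.0369), and its exons overlap those of Gm15792. Among 14 inhibitors of cyclin-dependent kinases and p53 targets none was called, 5 had an unadjusted p under 0.05 with E3KO higher and 3 with E3KO lower, and with library weights 4 were called higher and 2 lower. Mdm2, the ubiquitin ligase of p53, was at 72.04, 88.99 and 67.8 FPKM and 128, 132 and 186 FPKM (log2 fold change 0.94, limma adjusted p = 0.06998), and Cdkn1c, the inhibitor p57, at 1.699, 1.6 and 1.71 FPKM and 2.81, 3.47 and 4.36 FPKM (log2 fold change 0.75, limma adjusted p = 0.117).

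Promoters of mitotic genes often carry a short element called the CHR, with the letters TTTGAA, downstream of CCAAT boxes. These elements were searched for after the values of the mitosis genes had been seen, so the shares are a description. The windows reached from 250 bases before to 50 after each RefSeq start site (GRCm38.p6), both strands were read, and a gene counted if any of its promoters matched. A promoter was given for 7272 of the 10450 genes. CHR letters were found for 19 of the 25 mitosis genes with a promoter (76.0%) and for 14.1% of all genes, and CCAAT for 21 of 25 (84.0%) and 43.3%. Among the 59 genes called lower that had a promoter, 27 (45.8%) held CHR letters, and 17 of the 48 outside the mitosis list did so (35.4%). Among the 33 genes called higher, 5 did so (15.2%).

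Of the mitotic genes called lower, 4 are shown from 100 bases before to 50 after the start site, on the strand of the gene, with the CHR letters and CCAAT boxes (or their reverse complements) in capitals. They were picked from those with both elements, to show how these lie around the start site. The windows are chr7:122159335-122159484, plus strand for Plk1, chr7:80294351-80294500, plus strand for Prc1, chr1:189688037-189688186, minus strand for Cenpf and chr1:139454673-139454822, plus strand for Aspm.
Plk1: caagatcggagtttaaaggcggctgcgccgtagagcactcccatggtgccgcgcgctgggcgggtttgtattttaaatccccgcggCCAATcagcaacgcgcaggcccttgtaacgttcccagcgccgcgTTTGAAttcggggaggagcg
Prc1: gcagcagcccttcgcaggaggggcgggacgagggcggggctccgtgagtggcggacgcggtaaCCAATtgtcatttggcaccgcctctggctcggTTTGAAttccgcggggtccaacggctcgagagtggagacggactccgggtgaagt
Cenpf: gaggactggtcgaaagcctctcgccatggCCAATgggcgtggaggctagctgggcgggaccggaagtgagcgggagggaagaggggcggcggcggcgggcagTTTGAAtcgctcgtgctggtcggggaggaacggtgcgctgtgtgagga
Aspm: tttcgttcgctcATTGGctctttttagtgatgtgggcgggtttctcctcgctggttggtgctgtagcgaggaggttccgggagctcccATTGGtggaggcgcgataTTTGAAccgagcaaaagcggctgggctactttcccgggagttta
In Plk1, Cenpf and Aspm the CHR letters begin 30, 2 and 6 bases after the start site, and in Prc1 they begin 5 bases before the start site shown and 30 before its other start site. Aspm has 2 CCAAT boxes in the window, and the other 3 genes have 1 each.

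AP-1 letters, the motif of c-Jun, were sought in the same way. The AP-1 letters TGANTCA were in a promoter of 3 of 33 genes called higher (9.09%), 7 of 59 called lower (11.9%), none of 25 mitosis genes and 5.97% of all genes. The cAMP response element TGACGTCA was in none, 3 (5.08%), 1 (4%) and 3.62%, in the same order. The TEAD letters GGAATG were in 9 genes called higher (27.3%), 3 called lower (5.08%), 3 mitosis genes (12.0%) and 14.0% of all genes. The RBPJ letters TGGGAA were in 10 (30.3%), 16 (27.1%), 5 (20%) and 26.2%.

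Of the lymphatic genes, 2 were called lower, among them the factor that specifies lymphatic endothelium. Prox1 (chromosome 1, 190118038 to 190217276), the homeobox factor of lymphatic identity, was at 134, 117 and 145 FPKM in EfCtrl and at 58.1, 79.2 and 64.7 FPKM in E3KO (log2 fold change -0.97, SE 0.1598, limma adjusted p = 0.0369), and its exons overlap those of Prox1os. Reln, the secreted glycoprotein reelin made by lymphatic endothelium, was at 61.03, 63.6 and 81 FPKM and 34.7, 33.4 and 32.7 FPKM (log2 fold change -1.0, SE 0.174, limma adjusted p = 0.0431). The other defining lymphatic markers, Lyve1, Pdpn and Flt4, had log2 fold changes of 0.0006, -0.26 and -0.19. None of these was called, and their groups overlapped. Of 15 lymphatic markers tested, 9 were separated with E3KO lower (60.0%, against 19.8% of all genes) and none with E3KO higher, and the median was -0.56 (-0.63 without E3KO replicate 1, when Prox1 and Reln were no longer called, with limma adjusted p = 0.0561 and 0.0647, and the neuropeptide gene Nts was, with 0.0459). The lower sum of fibroblast and mural markers in E3KO, given above, runs with these values too, and its part in them was not tested.

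Arterial and venous markers gave 1 call each. Of 15 arterial markers, Dkk2 was called lower (values above), 6 were separated with E3KO lower (40%, against 19.8% of all genes) and 2 with E3KO higher (13.3%, against 9.50%), and the median was -0.30. That median was -0.03 without E3KO replicate 1. Of 6 venous markers, Bst1, the surface enzyme CD157, was called higher, at 1.88, 2.19 and 1.78 FPKM in EfCtrl and 6.71, 5.35 and 7.58 FPKM in E3KO (log2 fold change 1.35, SE 0.142, limma adjusted p = 0.0183). Its exons overlap those of Fbxl5 in the annotation. The venous median was -0.21, with 4 of the 6 below 0. The groups were separated with E3KO higher for 2 (33.3%, against 9.50% of all genes) and with E3KO lower for 2 (33.3%, against 19.8%). Of 18 pan-endothelial markers, the C-type lectin Clec14a was called higher, at 18.3, 14.6 and 15.4 FPKM and 27.5, 25.6 and 27.9 FPKM (log2 fold change 0.71, SE 0.117, limma adjusted p = 0.0369). Of 7 lung capillary genes none was called by limma, 3 had an unadjusted p under 0.05 with E3KO higher and 2 were called higher with library weights. Ednrb, the endothelin B receptor, was at 59.6, 73.4 and 50.8 FPKM and 83.4, 124 and 143 FPKM (log2 fold change 0.90, limma adjusted p = 0.0947), and the peptide Apln at 100.1, 119 and 102 FPKM and 187, 193 and 215 FPKM (log2 fold change 0.88, limma adjusted p = 0.144).

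No gene of the Notch pathway was called. Of 22 tested, 2 with E3KO higher and 5 with E3KO lower had an unadjusted limma p under 0.05, and 3 were called lower with library weights. The groups were separated with E3KO lower for 8 (36.4%, against 19.8% of all genes) and with E3KO higher for 2 (9.09%, against 9.50%). The median was -0.18, and -0.10 without E3KO replicate 1. The Notch target Hey1 was at 5.43, 5.08 and 5.54 FPKM in EfCtrl and 2.05, 2.99 and 2.91 FPKM in E3KO (log2 fold change -0.81, limma adjusted p = 0.0947). Dtx1, a ubiquitin ligase that modulates Notch, was at 4.72, 2.35 and 4.24 FPKM and 0.2796, 0.873 and 0.215 FPKM (log2 fold change -1.70, limma adjusted p = 0.1099). The ligand Dll4, chosen after its values were seen, was at 9.402, 6.65 and 7.05 FPKM and 3.13, 5.24 and 5.53 FPKM (log2 fold change -0.64, limma adjusted p = 0.198). In Hey1, Dtx1 and Dll4 all E3KO libraries were below all EfCtrl libraries, with Dtx1 under 1 FPKM in E3KO. The 2 separated with E3KO higher were Nrarp and Maml3. Nrarp was at 42.7, 44.05 and 40.8 FPKM in EfCtrl and 53.3, 52.1 and 59.9 FPKM in E3KO (log2 fold change 0.36, limma adjusted p = 0.184). Maml3 had a log2 fold change of 0.38 (limma adjusted p = 0.1999). The study listed Dll4, Hey1, Hes1 and Lfng among the genes that its Cuffdiff test called in E3KO cells. It also reported them as lower by quantitative RT-PCR, with less Dll4 protein. Hes1 and Lfng had log2 fold changes of -0.42 and -0.76 here (limma adjusted p = 0.338 and 0.4285). Hes1 was separated with E3KO lower, and the groups of Lfng overlapped.

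Genes of sprouting did not pass the test either. Of 20 tip cell genes limma called none, 5 with E3KO higher and 4 with E3KO lower had an unadjusted p under 0.05, and 4 were called higher with library weights. Esm1, the proteoglycan endocan, was at 30.4, 46.1 and 38.02 FPKM in EfCtrl and 74.8, 76.6 and 90.1 FPKM in E3KO (log2 fold change 1.07, limma adjusted p = 0.0727), and Lxn at 113, 117 and 126 FPKM and 186, 154 and 162 FPKM (log2 fold change 0.49, limma adjusted p = 0.0787). Of 20 vascular growth factors and receptors none was called, with 4 higher and 3 lower at an unadjusted p under 0.05, and 2 called higher and 1 lower with library weights. The placental growth factor Pgf was at 226, 228 and 229.8 FPKM and 132, 158 and 118 FPKM (log2 fold change -0.75, limma adjusted p = 0.05099), and the VEGF receptor Flt1 at 4.03, 5.53 and 4.37 FPKM and 9.32, 9.61 and 11.8 FPKM (log2 fold change 1.0, limma adjusted p = 0.117).

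Of the JNK cascade and AP-1, no gene was called. Of 12 kinases and scaffolds tested, Mapk8 and Mapk9 included, limma called none, 1 with E3KO higher and 3 with E3KO lower had an unadjusted p under 0.05, and 2 were called lower with library weights. The mixed-lineage kinase gene Map3k11 was at 4.74, 3.86 and 3.77 FPKM in EfCtrl and 2.22, 2.72 and 2.71 FPKM in E3KO (log2 fold change -0.53, limma adjusted p = 0.109). Of 9 AP-1 factors none was called, 2 had an unadjusted p under 0.05 and 1 was called lower with library weights. Jun was at 13.5, 11.3 and 13.03 FPKM and 7.14, 9.24 and 8.14 FPKM (log2 fold change -0.57, limma adjusted p = 0.0922), and Jund at 12.8, 15.3 and 16.5 FPKM and 7.29, 10.7 and 9.08 FPKM (log2 fold change -0.67, limma adjusted p = 0.148). Both were separated, with E3KO lower, and the exons of Jun overlap those of Junos.

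Among molecules that bind leukocytes 1 gene was called in each direction. Icam1, a ligand of leukocyte integrins, was called higher, at 9.24, 10.4 and 7.82 FPKM in EfCtrl and 28.1, 18.8 and 21.9 FPKM in E3KO (log2 fold change 1.23, SE 0.229, limma adjusted p = 0.0488). Podxl, the sialomucin podocalyxin, was called lower, at 37.3, 31.5 and 37.5 FPKM and 15.1, 18.96 and 17.8 FPKM (log2 fold change -0.99, SE 0.157, limma adjusted p = 0.0355). Of 13 adhesion molecules tested, 6 were separated with E3KO higher (46.2%, against 9.50% of all genes) and 2 with E3KO lower (15.4%, against 19.8%), and the median was 0.26. The merged symbol of Mir1900 lies within the Icam1 locus and was called higher as well. Without E3KO replicate 1 neither Icam1 nor Podxl was called (0.0737 and 0.0513 as limma adjusted p). Of 9 chemokines and cytokines limma called none, 4 with E3KO higher and 1 with E3KO lower had an unadjusted p under 0.05, and 4 were called higher with library weights. The monocyte chemoattractants Ccl2 and Ccl7 were at 188, 287 and 178 FPKM and 11.1, 14.5 and 5.55 FPKM in EfCtrl and at 537, 482 and 514 FPKM and 28.3, 35.6 and 43.5 FPKM in E3KO (log2 fold change 1.26, limma adjusted p = 0.0645, and log2 fold change 1.76, limma adjusted p = 0.0803). In both chemokines the groups were separated.

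Caveolin-1 was called lower. Cav1, the coat protein of caveolae, was at 659.9, 613 and 669 FPKM in EfCtrl and 415, 409.6 and 421 FPKM in E3KO (log2 fold change -0.64, SE 0.0931, limma adjusted p = 0.0307), a modest change between tight groups. It was the only call among 9 caveolar genes, of which 5 were separated with E3KO lower (55.6%, against 19.8%) and none with E3KO higher. The median was -0.51, and -0.29 without E3KO replicate 1. It was also the only call among 11 flow-responsive genes, whose median was -0.04. Of 20 junction proteins limma called none, 2 with E3KO higher and 6 with E3KO lower had an unadjusted p under 0.05, and 1 was called higher and 4 lower with library weights. The connexin gene Gjc1 was at 12.3, 10.4 and 13.4 FPKM and 5.32, 7.27 and 6.45 FPKM (log2 fold change -0.83, limma adjusted p = 0.0521), and Cldn5, the main claudin of endothelium, at 263, 198 and 197 FPKM and 97.5, 129 and 114 FPKM (log2 fold change -0.94, limma adjusted p = 0.0735).

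The guidance genes, the matrix proteases and inhibitors, and the TGF-beta and BMP pathway held 1 call each, all lower. Ephb1, an ephrin receptor, was at 25.97, 22.9 and 23.9 FPKM in EfCtrl and 8.14, 13.9 and 10.5 FPKM in E3KO (log2 fold change -1.12, SE 0.181, limma adjusted p = 0.0369), 1 of 27 guidance genes tested. Serpine2, the protease inhibitor protease nexin-1, was at 108, 93.8 and 94.4 FPKM and 56.6, 57.5 and 45.6 FPKM (log2 fold change -0.88, SE 0.138, limma adjusted p = 0.0348), 1 of 19 proteases and inhibitors. Ltbp1, which binds latent TGF-beta in the matrix, was at 10.5, 7.09 and 9.65 FPKM and 3.45, 4.66 and 4.09 FPKM (log2 fold change -0.99, SE 0.155, limma adjusted p = 0.0352), 1 of 26 genes of the TGF-beta and BMP pathway. The medians of these lists were -0.11, -0.05 and -0.13. Of 15 basement membrane genes limma called none, with 1 higher and 4 lower at an unadjusted p under 0.05, and 1 called higher and 2 lower with library weights. There, Col15a1 was at 5.31, 7.602 and 7.53 FPKM and 3.98, 2.797 and 2.65 FPKM (log2 fold change -0.91, limma adjusted p = 0.0614), and Lamb2 at 6.32, 4.26 and 4.78 FPKM and 2.05, 3.56 and 3.19 FPKM (log2 fold change -0.64, limma adjusted p = 0.169).

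**Figure D4:**
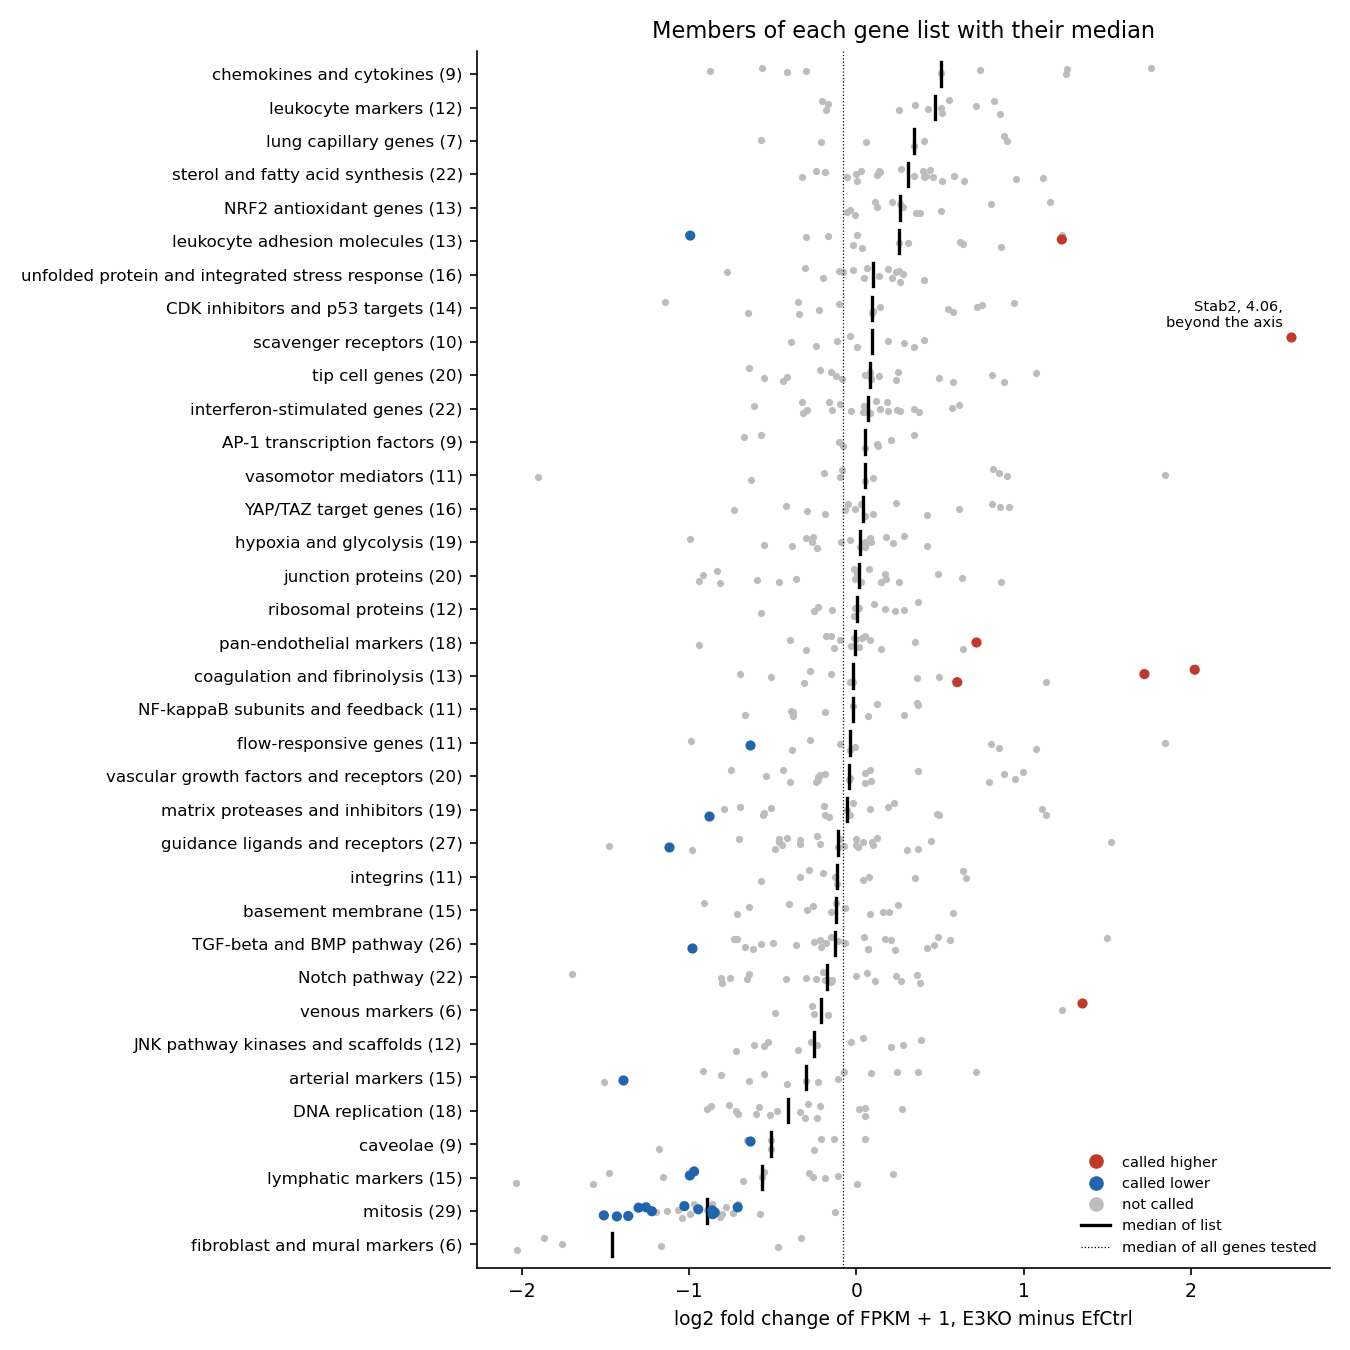
Log2 fold changes of the tested members of each gene list with 6 or more members tested, with the number tested in brackets and the list median as a bar. The fibroblast and mural list has the lowest median (-1.465, 6 tested, none called). The mitosis list holds 12 of the genes called lower around a median of -0.89, while most lists lie around the median of all genes (-0.08, dotted line). Stab2 (4.06) is drawn at the edge of the axis.

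Metabolic and stress lists had small median differences and no calls. Of 22 sterol and fatty acid synthesis genes limma called none, 7 had an unadjusted p under 0.05, all with E3KO higher, and 6 were called higher with library weights. The groups were separated with E3KO higher for 8 (36.4%, against 9.50% of all genes) and with E3KO lower for none, and the median was 0.31. Idi1 and Cyp51, enzymes of the sterol pathway, were at 2.37, 2.27 and 2.45 FPKM and 4.89, 3.15 and 3.35 FPKM in EfCtrl and at 4.61, 4.07 and 8.78 FPKM and 13.1, 5.54 and 10.8 FPKM in E3KO (log2 fold change 0.96, limma adjusted p = 0.104, and log2 fold change 1.12, limma adjusted p = 0.105). Of 13 antioxidant genes controlled by NRF2 none was called, and 5 had an unadjusted p under 0.05 with E3KO higher. With library weights 2 were called higher, where 2.80% of all genes were. The groups were separated with E3KO higher for 8 (61.5%, against 9.50% of all genes) and with E3KO lower for none. The cystine transporter Slc7a11 was at 1.27, 2.27 and 1.32 FPKM and 3.59, 4.69 and 6.34 FPKM (log2 fold change 1.16, limma adjusted p = 0.06601), and heme oxygenase Hmox1 at 269, 322 and 234 FPKM and 394, 501 and 553 FPKM (log2 fold change 0.81, limma adjusted p = 0.115). The list median was 0.26.

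Vasoactive mediators and targets of YAP and TAZ were also without calls. Of 11 vasomotor genes 4 with E3KO higher and 1 with E3KO lower had an unadjusted limma p under 0.05, and the same numbers were called with library weights. The inducible cyclooxygenase Ptgs2 was at 2.05, 3.21 and 2.58 FPKM in EfCtrl and 11.4, 9.16 and 15.8 FPKM in E3KO (log2 fold change 1.84, limma adjusted p = 0.0641), and the natriuretic peptide receptor Npr1 at 36.03, 41.9 and 30.6 FPKM and 54.2, 66.5 and 72.9 FPKM (log2 fold change 0.82, limma adjusted p = 0.0643). Of 16 targets of YAP and TAZ 4 with E3KO higher and 2 with E3KO lower had an unadjusted p under 0.05, and 4 were called higher and 1 lower with library weights. Ctgf was at 142, 138 and 149 FPKM and 316, 236 and 264 FPKM (log2 fold change 0.91, limma adjusted p = 0.0643), and Tgfb2 at 17.4, 15.1 and 17.3 FPKM and 11.9, 9.62 and 7.67 FPKM (log2 fold change -0.73, limma adjusted p = 0.0689).

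Some list members not called with all 9 libraries were called without E3KO replicate 1. Ednrb, which is both a lung capillary and a vasomotor gene, was then called higher (limma adjusted p = 0.0459), as was the matrix protease gene Adamts5 (0.0456). Tgfb2, which is in the YAP and TAZ list and in the TGF-beta and BMP list, was then called lower (0.0458), as was Col15a1 of the basement membrane (0.0462), while Ltbp1 was not (0.0513). Nts and Cdc20, named above, were the others of this kind.

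In the other lists limma called no gene. At an unadjusted p under 0.05 there were 3 genes of 11 for NF-kappaB subunits and feedback (led by Nfkb2, -0.38, and Traf1, -0.66), none of 11 integrins, 1 of 19 hypoxia and glycolysis genes, 1 of 22 interferon-stimulated genes, 3 of 16 stress response genes and 2 of 12 ribosomal proteins. With library weights 2 integrins were called higher, 1 hypoxia gene higher and 1 lower, 1 stress response gene lower and none in the other 3 of these lists. Their medians ranged from -0.12 (integrins) to 0.10 (stress response).

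Markers of fibroblasts and mural cells were lower in E3KO. The summed level of 16 fibroblast and mural markers was 28.3, 69.4 and 83.8 FPKM in EfCtrl and 12.5, 20.5 and 27.0 FPKM in E3KO, and all E3KO libraries were below all EfCtrl libraries. Only 6 of them reached the FPKM minimum, and of these 4 were separated with E3KO lower (66.7%, against 19.8% of all genes), none was called by limma, 4 had an unadjusted p under 0.05 and 3 were called lower with library weights. All 6 had a log2 fold change below 0. Their median was -1.465, the lowest of any list, and -1.225 without E3KO replicate 1. Col1a2, a collagen I chain, was at 1.77, 7.89 and 8.63 FPKM in EfCtrl and 0.146, 0.845 and 0.648 FPKM in E3KO (log2 fold change -2.03, limma adjusted p = 0.123), and Acta2, smooth muscle actin, at 11.6, 28.1 and 35.1 FPKM and 4.49, 6.32 and 5.75 FPKM (log2 fold change -1.87, limma adjusted p = 0.133).

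The 18 leukocyte markers summed to 244, 346 and 193 FPKM in EfCtrl and to 295, 365 and 419 FPKM in E3KO, and these ranges overlapped. Ptprc and Csf1r, 2 of their defining genes, were under the FPKM minimum. None of the 12 tested was called, 2 had an unadjusted p under 0.05 with E3KO higher, and 2 were called higher with library weights. Their median log2 fold change was 0.467, against -0.08 over all genes, with 9 above 0 and 3 below. Without E3KO replicate 1 the median was 0.428. Cd53 was at 4.42, 7.74 and 6.12 FPKM and 11.6, 9.43 and 13.2 FPKM (log2 fold change 0.82, limma adjusted p = 0.178), and Fcer1g at 20.1, 22.9 and 14.8 FPKM and 26.5, 32.6 and 37.4 FPKM (log2 fold change 0.72, limma adjusted p = 0.247). The part of leukocyte RNA in the rises was not tested. The 13 epithelial markers summed to between 3.89 and 5.12 FPKM in 5 of the libraries and to 51.8 FPKM in E3KO replicate 1, mostly Scgb1a1 of club cells (46.2 FPKM there). Krt18 was the only other one tested (log2 fold change -0.07, limma adjusted p = 0.921), and its sign changed with library weights, with medians set equal and with quantile normalization. Mesothelial markers summed to 0.944, 3.19 and 3.42 FPKM in EfCtrl and to 0.322 FPKM or less in E3KO, and erythroid markers to 0.248 FPKM or less in every library.

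Genes near the targeted loci were also counted. Within 10 Mb of Mapk8, 62 genes were tested, 1 was called higher (Wnt5a) and none lower, and within 10 Mb of Mapk9, 123 were tested, none was called higher and 1 lower (Zfp672). The medians were -0.07 and -0.07, close to that of all genes.

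The genes named above fell into 2 groups when E3KO replicate 1 was left out. Stab2, Tfpi2, Slco2a1, Entpd1, Smoc1, Ces2e, Tfec, Mest, Copg2, Tll1, Bst1 and the merged symbol of Mir1900 were still called higher. F2rl1, Fhl1, Tmod2, Khdrbs2, Kif2c, Adamts15, Ephb1, Serpine2, Cav1 and the mitosis genes Prc1, Mki67, Aspm, Anln, Tpx2, Cenpe were still called lower. The other called genes named here had limma adjusted p between 0.0501 (Kif20b) and 0.0737 (Icam1). For all of them the 2 remaining E3KO libraries did not overlap the EfCtrl libraries. This had to hold, since the full groups did not overlap for any called gene, so it adds nothing to their result.

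**Figure D5:**
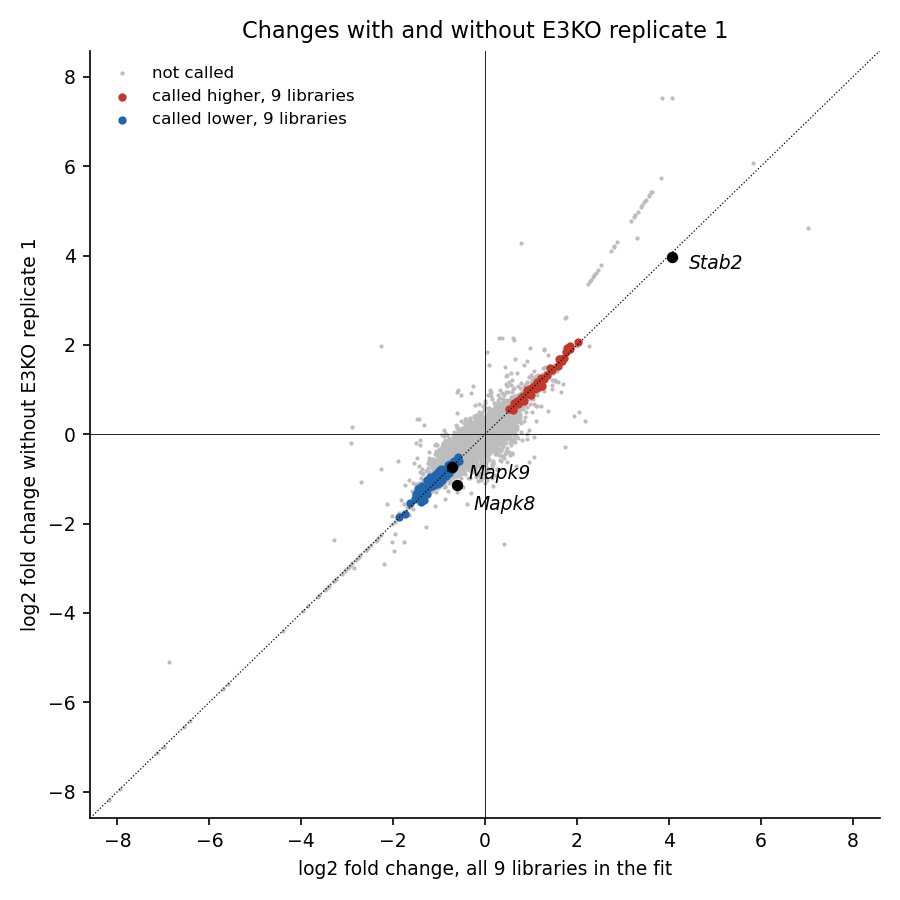
Log2 fold changes from all 9 libraries against those without E3KO replicate 1. All 126 called genes keep their sign, as genes whose groups do not overlap must. Mapk9 stays near the diagonal (-0.72 and -0.73), and Mapk8 moves from -0.61 to -1.13.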

How the data were processed

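Poly(A) RNA of cultured mouse lung endothelial cells was sequenced by the study, each library from a separate isolation. The deposited FPKM values were made by the authors with TopHat and Bowtie (mm10), Cufflinks and Cuffdiff, and scaled to library size there. Cufflinks 1.0.3 is named in the submitters' processing notes. The study's methods give read depth as an average over libraries and not per library, and FPKM do not keep it, so precision is given by the spread of 3 libraries. The authors' own fold changes and p-values in the tables were not used.

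Genes whose symbol named several loci were left out (3749 of 37104 loci), and a gene needed a group mean of at least 2 FPKM in E3KO or EfCtrl. The model, on log2(FPKM + 1), took all 9 libraries in 3 groups (limma 3.58.1 under R 4.3.3), with Benjamini-Hochberg adjustment over 10450 genes. A gene was called at an adjusted p under 0.05 and an absolute log2 fold change over 0.5. The test was also run on simulated libraries with independent noise, its spread for a gene being the same in every library. That setting holds no outlying library such as E3KO replicate 1, so it does not check the test under the conditions of these data. Genes named were the targeted genes, the 12 named genes with the largest called rise and the 12 with the largest fall whose groups did not overlap, the called members of each list (up to 6 with the smallest p in full), the 2 members with the smallest p where none was called, and defining markers of other cell types. Some genes that this rule names are not reported here. The members and lists were chosen with earlier results of these data known. Promoters came from RefSeq (GRCm38.p6). Alternatives covered the pseudocount, the FPKM minimum, the libraries fitted, variance settings, library weights, scaling, a replicate block and leaving out each library. Figures were drawn with matplotlib 3.10.9.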

Additional observations from a re-analysis of the deposited data

How the results depend on the processing

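The 126 calls (47 higher, 79 lower) and the 12 calls among mitosis genes depended on the setting. The direction was the same for all 126 genes with medians set equal and with quantile normalization. It could not change when 1 library was left out (124 were tested in all 9 such fits), since the groups did not overlap for these genes. The replicate block could not change it either, as the block leaves the differences between group means as they were. With a pseudocount of 0.1 there were 75 calls (29 higher, 46 lower, 6 mitosis genes), with no FPKM minimum 66 (34 lower, 6 mitosis genes), with only the 6 E3KO and EfCtrl libraries 70 (32 lower, 5 mitosis genes) and with a fold minimum of 1 there were 65 (27 higher, 38 lower, 7 mitosis genes). Library weights gave 816 (293 higher, 523 lower, 28 mitosis genes), and quantile normalization 92 higher. Leaving out 1 library gave 1 to 220 calls, 1 to 90 of them higher and 0 to 130 lower, with 0 to 17 mitosis genes. In fits chosen after seeing the data, the E3KO and EfCtrl libraries without E3KO replicate 1 gave 391 calls (152 higher, 239 lower, 26 mitosis genes), and without that library but with all others and medians set equal there were 55 (21 lower, 2 mitosis genes). The cause of these shifts was not tested.

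The replicate numbers did not pair the libraries, since the deviations of same-numbered libraries correlated at 0.0027, 0.0027 and 0.0018 across genes. With the replicate block, limma called 1 gene, which was higher, 0 lower and 0 mitosis genes, with 1679 genes at an unadjusted p under 0.05 (for genes called between E3KO and EfCtrl, 1872 without it). Every group holds each replicate number once, so the block leaves each log2 fold change as it was and no sign could change.

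With library weights Mapk8 was at -1.12 and Mapk9 at -0.78, both then past the threshold. Leaving out 1 library, Mapk8 ranged from -1.13 to -0.16 and Mapk9 from -0.90 to -0.53. Krt18, at -0.07 and not called, changed sign with library weights (0.0695), medians set equal (0.00361), quantile normalization (0.18), without EfCtrl replicate 3 (0.04), without E3KO replicate 1 (0.11, the same with only E3KO and EfCtrl libraries, and 0.16 with medians set equal), in a range of -0.21 to 0.11 when 1 library was left out. Of the 2100 values of 88 named genes under the alternatives, 1667 kept their side of the threshold and direction, 352 were no longer past it, 74 were newly past it and 7 changed sign.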

Other observations

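Most of the 126 called genes, 99 of them, were in none of the gene lists, and the following were chosen after their values were seen. Several encode proteins of the spindle and of cell division and were called lower. Kif20a, a kinesin of cytokinesis, was at 15.04, 12.8 and 13.3 FPKM in EfCtrl and at 8.63, 7.04 and 7.15 FPKM in E3KO (log2 fold change -0.78, limma adjusted p = 0.0339). Tacc3, a spindle protein, was at 23.3, 18.6 and 21.4 FPKM and 9.04, 10.3 and 10.99 FPKM (log2 fold change -0.99, limma adjusted p = 0.0369). Cep55, which acts in abscission, was at 10.98, 7.04 and 9.197 FPKM and 3.69, 3.27 and 3.71 FPKM (log2 fold change -1.13, limma adjusted p = 0.0408). Spag5, Ncapd2 (a condensin subunit), Wdr62 and Ckap2l had log2 fold changes of -0.87, -1.04, -1.23 and -0.99. In all of these the groups did not overlap, and of them Kif20a alone was called without E3KO replicate 1. Fbn1, fibrillin-1 of the extracellular matrix, was at 9.19, 7.55 and 11.3 FPKM and 3.56, 3.78 and 3.55 FPKM (log2 fold change -1.14, limma adjusted p = 0.0295), and the transcription factor Foxp2 at 10.5, 7.99 and 8.98 FPKM and 4.28, 4.08 and 3.31 FPKM (log2 fold change -1.05, limma adjusted p = 0.0266). Both were called without E3KO replicate 1. Fibroblasts also express Fbn1, and fibroblast and mural markers were lower in E3KO; their part in this value was not tested.

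Among the genes called higher outside the lists were several enzymes. Hsd11b1, which regenerates active glucocorticoid, was at 21.4, 20.6 and 20.1 FPKM in EfCtrl and 43.6, 43.3 and 52.9 FPKM in E3KO (log2 fold change 1.13, limma adjusted p = 0.0183). Maoa, monoamine oxidase A, was at 28.2, 27.9 and 28.1 FPKM and 53.4, 56.9 and 55.5 FPKM (log2 fold change 0.95, limma adjusted p = 0.0295). Gsto1, a glutathione transferase, was at 72.7, 82.5 and 83.5 FPKM and 189, 147 and 176 FPKM (log2 fold change 1.09, limma adjusted p = 0.0266). These 3 were called without E3KO replicate 1. Ass1, argininosuccinate synthase, was at 12.8, 12.8 and 9.67 FPKM and 30.9, 26.4 and 31.96 FPKM (log2 fold change 1.27, limma adjusted p = 0.0314). Secreted factors were also among them. Nrg1, the ErbB ligand neuregulin-1, was at 1.25, 1.25 and 1.27 FPKM and 4.07, 4.43 and 3.75 FPKM (log2 fold change 1.17, limma adjusted p = 0.0348), and Wnt5a, which lies within 10 Mb of Mapk8, at 4.74, 5.697 and 4.71 FPKM and 8.81, 8.64 and 10.7 FPKM (log2 fold change 0.78, limma adjusted p = 0.0408). Without E3KO replicate 1 the limma adjusted p of Ass1, Nrg1 and Wnt5a was 0.0513, 0.0513 and 0.05103.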
